A study of Mus musculus with 2 samples.

Results

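The Hox genes are the 39 genes of the mouse count matrices whose symbol is Hox followed by a cluster letter (a, b, c or d) and a paralogue number, of 28692 genes in all. The Hoxa cluster holds 11 of them, Hoxb 10, Hoxc 9 and Hoxd 9, and all 39 were looked at in every cell that was kept. The data are single-cell RNA-seq of cells grown from the hearts of 3-day-old C57Bl6 mice, with the cells of 15 hearts of both sexes combined. The dorsal pool came from the tissue around the pulmonary veins, with the cardiac ganglia and sinoatrial node, and the ventral pool from the outflow tract base with the pulmonary artery and proximal aorta. Both pools were kept for 5 days as adherent cultures and then detached with trypsin, and each gave 1 library with the 10x Genomics 3′ v3 kit. The labels name no transgene and no drug and separate the groups by the dissected domain alone. With 1 pooled library for each domain there is no replicate, so that domain, culture and library cannot be told apart and no test across samples was possible.

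Hox genes encode homeodomain transcription factors that stand in 4 genomic clusters, where genes of the same paralogue number descend from 1 ancestral gene. The paralogue number follows the position in the cluster: low numbers are active in the head and neck end of the embryo, high numbers further towards the tail, and each segment of the body carries a different combination. In the heart, the neural crest that reaches the outflow tract and the mesoderm that forms its poles carry low-numbered Hox genes, which respond to retinoic acid. Many Hox proteins bind DNA together with PBX and MEIS cofactors.

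Of the 39 Hox genes, 22 were found in a table of RefSeq promoters (GRCm38.p6), with 24 promoters. The 250 bases before the RefSeq start are shown for Hoxa5, the Hox gene with the most counts and a higher level in the dorsal library, for Hoxb4, whose level was close in both libraries, and for Hoxd8 and Hoxd9, which led the dorsal endothelial-like cells. Capitals mark the CCAAT box (CCAAT) and the half-site of the retinoic acid receptors (AGGTCA) on either strand. The GENCODE model of Hoxd9 begins inside its stretch, at base 74697727. The stretches lie at chr6:52204588-52204837 on the minus strand (Hoxa5), chr11:96318017-96318266 on the plus strand (Hoxb4), chr2:74704365-74704614 on the plus strand (Hoxd8) and chr2:74697513-74697762 on the plus strand (Hoxd9).
Hoxa5: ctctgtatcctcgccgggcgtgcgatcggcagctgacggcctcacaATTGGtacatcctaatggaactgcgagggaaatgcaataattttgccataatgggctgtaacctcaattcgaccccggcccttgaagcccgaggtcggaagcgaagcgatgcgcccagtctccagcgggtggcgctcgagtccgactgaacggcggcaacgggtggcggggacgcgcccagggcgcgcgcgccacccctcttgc
Hoxb4: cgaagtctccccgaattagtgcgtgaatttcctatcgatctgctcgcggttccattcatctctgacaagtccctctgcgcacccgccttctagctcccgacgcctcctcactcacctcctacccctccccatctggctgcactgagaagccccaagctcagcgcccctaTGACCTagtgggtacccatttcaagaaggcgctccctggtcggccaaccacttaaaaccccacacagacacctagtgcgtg
Hoxd8: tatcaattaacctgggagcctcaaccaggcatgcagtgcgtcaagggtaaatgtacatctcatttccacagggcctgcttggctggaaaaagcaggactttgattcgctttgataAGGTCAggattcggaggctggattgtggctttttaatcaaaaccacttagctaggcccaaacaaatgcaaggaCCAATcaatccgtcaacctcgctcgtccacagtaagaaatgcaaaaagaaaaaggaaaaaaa
Hoxd9: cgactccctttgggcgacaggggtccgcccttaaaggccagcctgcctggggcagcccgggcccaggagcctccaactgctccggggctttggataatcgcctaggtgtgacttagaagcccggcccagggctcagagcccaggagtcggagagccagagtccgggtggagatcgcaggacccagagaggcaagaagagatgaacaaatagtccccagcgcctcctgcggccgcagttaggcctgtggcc
The Hoxa5 stretch held 1 CCAAT box, the Hoxb4 stretch 1 receptor half-site and the Hoxd8 stretch 1 of each, while the Hoxd9 stretch held none of the motifs searched. Over the 24 Hox promoters, CCAAT on either strand was found in 14, against 33.8% of all 32851 promoters of the table. AGGTCA was found in 6 Hox promoters, against 14% of all promoters. The composite site of PBX and Hox proteins (TGATNNAT) was found in 4, against 7.68%, and TATAAA in 4, against 12.4%, and neither was in the 4 stretches shown. A match says only that these letters stand in this window. The GC content was 63.6% in the Hoxa5 stretch, 58.0% for Hoxb4, 44.4% for Hoxd8 and 65.2% for Hoxd9, beside a median of 58.6% over the Hox promoters and 52.4% over all promoters.

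A cell was a barcode with at least 8000 unique molecular identifiers (UMIs, each standing for 1 captured RNA molecule) and at most 20% of them from mitochondrial genes. This left 8926 dorsal cells with 229117951 UMIs and 10649 ventral cells with 253103590 UMIs. The median dorsal cell held 22774 UMIs and the median ventral cell 21462, and 22 barcodes were kept in both libraries. Leaving those out gave a Hox sum of 118 and 84.8 counts per 1000000 UMIs (CPM), the same to 3 digits as with them. Levels below are CPM of UMIs summed over cells, which count RNA molecules at their 3′ ends and are not divided by gene length. Intervals are 95% intervals (exact Poisson for a level, exact conditional binomial for a ratio) and cover counting error only, and ratios are log2 of dorsal over ventral. Although the labels give cardiac tissue as the source, cells with cardiomyocyte markers were few, with 48 dorsal and 32 ventral ones.

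Hox genes made up more of the dorsal than of the ventral RNA. Most of the difference in CPM lay in paralogues 1 to 5, Hoxa5 above all, and the ratio was larger in paralogues 6 to 13. All Hox genes together reached 118 CPM (117 to 120) in the dorsal and 84.8 CPM (83.6 to 85.9) in the ventral library, from 27062 and 21454 UMIs. Paralogues 1 to 5, which supplied 89.7% of the dorsal and 96.9% of the ventral Hox UMIs, stood at 106 and 82.1 CPM, a log2 ratio of 0.37 (0.34 to 0.39). Paralogues 6 to 13 stood at 12.1 and 2.62 CPM, a log2 ratio of 2.21 (2.09 to 2.34). In summed libraries, fewer cells of a type and less RNA per cell cannot be told apart.

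The dorsal library held at least 1 UMI of 34 Hox genes and the ventral library of 30. No UMI of Hoxc11, Hoxc12 or Hoxd12 was found in either, which allows up to 0.0131 CPM in the dorsal and 0.0119 CPM in the ventral library. Of the 22 Hox genes with at least 50 UMIs over both libraries, 11 exceeded the ventral level by 2-fold or more, 2 exceeded the dorsal level by as much and 9 lay between. Over all 15719 genes with that many UMIs, 12.8% passed this limit on the dorsal side and 6.03% on the ventral side. The median log2 ratio was 1.15 over the 22 Hox genes and 0.12 over all of these genes; TMM scaling, which is robust to a few strongly differing genes, moved the latter to 0.01. The other 17 Hox genes had fewer than 50 UMIs, which includes the 3 without any.

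**Figure D1:**
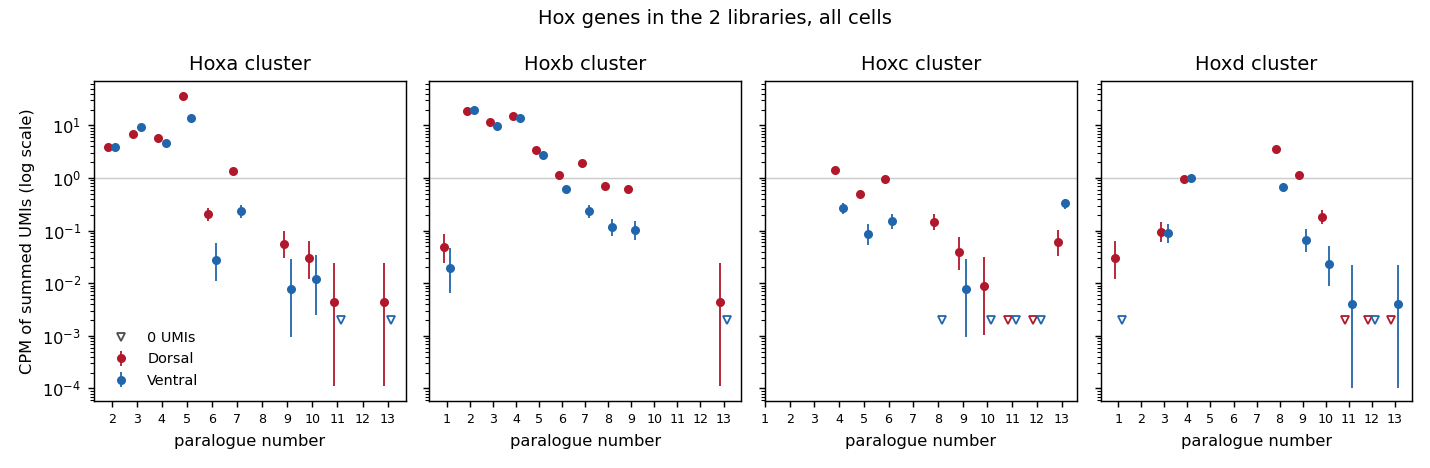
Level of 38 of the 39 Hox genes in the dorsal (red) and ventral (blue) library, in CPM of summed UMIs on a log axis, by paralogue number in the 4 genomic clusters; bars are 95% Poisson intervals and open triangles mark genes without a UMI. Red and blue points lie close together from paralogue 2 to 4 in Hoxa and Hoxb, and red points lie above blue ones from Hoxa5 and Hoxb7 on.

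In the Hoxa cluster, the ratio turned from ventral to dorsal along the paralogue numbers. Hoxa2, a patterning gene of the branchial arches, was at 3.82 CPM in the dorsal and 3.94 CPM in the ventral library (log2 ratio -0.05), and it was 0.39 on the log2 scale when every cell was thinned to 8000 UMIs. Hoxa3, needed for the thymus, parathyroid and carotid arteries, was at 7.01 and 9.32 CPM (-0.41, -0.50 to -0.32). Without thinning, both genes were thus level or higher in the ventral library. Hoxa4 was at 5.70 and 4.66 CPM (0.29), and Hoxa5, known for its part in lung and skeletal patterning, at 36.2 (35.4 to 36.9) and 13.6 (13.2 to 14.1) CPM. Hoxa5 had the highest level of any Hox gene in the dorsal library, with 2.66-fold the ventral level (log2 ratio 1.41, 1.35 to 1.47). Hoxa7 was at 1.37 and 0.233 CPM (2.56, 2.16 to 2.99).

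In the Hoxb cluster (chr11:96194316-96368256, 174 kb), the genes up to number 5 were close in both libraries and Hoxb7 stood apart. Hoxb2, a hindbrain and neural crest gene, was at 19 CPM in the dorsal and 19.8 CPM in the ventral library, where it had the highest level of any Hox gene (log2 ratio -0.06, or 0.01 with thinned cells). Hoxb3 was at 11.4 and 9.61 CPM (0.25). Hoxb4, a gene also known from blood stem cells, was at 15.1 and 14.1 CPM (0.10, or -0.01 with TMM scaling). These 3 genes held the largest Hoxb levels in both libraries. Hoxb5 was at 3.48 and 2.68 CPM (0.38), Hoxb6 at 1.12 and 0.608 CPM (0.88), and Hoxb7 at 1.93 (1.75 to 2.12) and 0.233 (0.177 to 0.301) CPM, a log2 ratio of 3.05 (2.65 to 3.47). The intervals of the Hoxb6 and Hoxb7 ratios did not overlap.

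The Hoxc and Hoxd clusters were low in both libraries and higher in the dorsal one. The Hoxc genes (chr15:102921103-103036852) summed to 3.09 CPM in the dorsal and 0.842 CPM in the ventral library, and the Hoxd genes (chr2:74668310-74765142) to 5.97 and 1.86 CPM. Hoxc4 was at 1.39 and 0.265 CPM (log2 ratio 2.39, 2.01 to 2.80). Hoxd8 was at 3.54 (3.30 to 3.79) and 0.684 (0.585 to 0.793) CPM, a ratio of 2.37, and Hoxd9 at 1.14 (1.01 to 1.29) and 0.0672 (0.0391 to 0.108) CPM. Hoxc8 had 34 UMIs in the dorsal and 0 in the ventral cells, at least 12.5-fold higher against a floor of 3 UMIs per library. Hoxd9 rested on 262 dorsal and 17 ventral UMIs and had the largest log2 ratio of the 22 Hox genes, 4.09 (3.38 to 4.89). Chosen after their values were seen like Hoxc8, 5 genes with levels under 1 CPM in both libraries (Hoxa6, Hoxb8, Hoxb9, Hoxc5 and Hoxc6) had log2 ratios of 2.53 to 2.89. Also chosen so, Hoxd4 was at 0.978 and 0.992 CPM, but 52.3% of its exonic bases lie on the same strand as exons of Hoxd3 or of another annotated gene, so its counts are uncertain.

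Hoxc13, unlike Hoxc4, Hoxc5 and Hoxc6, was higher in the ventral library (a gene chosen after its values were seen, known from hair and nail). It had 14 dorsal and 83 ventral UMIs, 0.0611 and 0.328 CPM (log2 ratio -2.42, -3.36 to -1.60). Of its ventral UMIs, 73.5% were in cluster 10, led by the mesothelial genes Msln and Upk1b, which held 8.57% of the ventral cells. Another 12% were in cluster 15, which shared Upk1b and was led by cell cycle genes. Hoxc12 and Hoxc11 beside it on the chromosome had no UMI.

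From paralogue 2 to 9, the summed levels ran from close values to a dorsal excess. Paralogue 2 was at 22.8 CPM in the dorsal and 23.8 CPM in the ventral library (log2 ratio -0.06) and paralogue 3 at 18.5 and 19 CPM (-0.04). Paralogue 4 was at 23.2 and 19.98 CPM (0.21), paralogue 5 at 40.1 and 16.4 CPM (1.29) and paralogue 6 at 2.27 and 0.790 CPM (1.52). From paralogue 7 to 9 the log2 ratios were 2.83, 2.46 and 3.32, with levels of at most 4.40 CPM in the dorsal and 0.802 CPM in the ventral library. Paralogue number was not the whole of the pattern: within number 4, Hoxc4 had a ratio of 2.39 and Hoxa4, Hoxb4 and Hoxd4 had 0.29, 0.10 and -0.02.

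**Figure D2:**
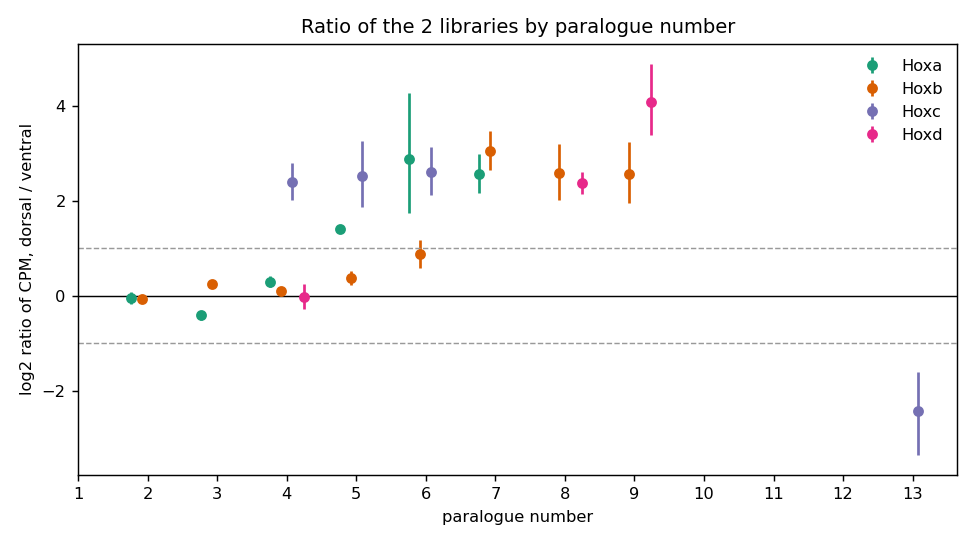
Log2 ratio of dorsal over ventral CPM for 21 of the 22 Hox genes with at least 50 UMIs, by paralogue number, with colours for the 4 genomic clusters; bars are 95% conditional binomial intervals and dashed lines mark 2-fold. Hoxc13 at -2.42 lies below the lower dashed line, and every plotted gene numbered 7 to 9 lies above the upper one.

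Within each library the Hox level differed more between clusters of cells than between the libraries. Cells were clustered without the Hox genes, and the 13 dorsal and 12 ventral clusters with at least 50 cells are called here by number and leading genes. The dorsal Hox sum ran from 35.9 CPM in cluster 0, led by Sele, Fbln1 and Cxcl2, to 219 CPM in the endothelial-like cluster 16. The ventral sum ran from 13.6 CPM in cluster 23, led by Gpx3 and Hsd11b1, to 193 CPM in cluster 19, led by Epha3, Col12a1 and Fst. A cluster that comes almost wholly from 1 library may stand for that library rather than for a cell type.

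The macrophage-like cells, which come from blood lineages and not from the local mesenchyme, gave the level to read these sums against. Their Hox sum was 38.6 CPM in 196 dorsal cells and 14.7 CPM in 131 ventral cells. Of these cells, 40 dorsal and 9 ventral ones were called doublets. Without them, an alternative added after seeing the data, the Hox sum was 25.8 CPM (22.1 to 29.99) in the dorsal and 13.4 CPM (9.88 to 17.8) in the ventral cells, with dorsal Hoxa5 at 9.36 CPM and Hoxb4 at 6.34 CPM. In barcodes with 1 to 100 UMIs, which hold free RNA, the Hox sum was 101 and 82.0 CPM, so that macrophage-like cells carried 38.1% and 17.9% of the free level. The fibroblast markers in the same cells stood at 34.7% and 25.5% of their free level. Hoxa5 and Hoxb4 had at least 50 UMIs in this class. Hoxa5, at 14.5 and 2.78 CPM (log2 ratio 2.38), passed the 2-fold limit on the dorsal side, as did 4.57% of all genes, and neither passed it on the ventral side, where 3.18% did.

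At most 1.5 times the macrophage-like Hox sum was found in 1 other dorsal cluster and 3 other ventral clusters, a limit set after the values were seen. In the dorsal library this was cluster 0, with 17.3% of the cells and 6.27% of the Hox UMIs. In the ventral library these were cluster 23, cluster 17 (led by Fmod and Scx, 14.3 CPM) and cluster 24 (led by Ehd3 and Ppp1r14a, 21.3 CPM), with 44.7% of the cells and 7.29% of the Hox UMIs. Against the macrophage-like sum without called doublets, cluster 24 lay above the limit and the other 3 clusters within it. Hoxb2 lay above the ventral macrophage-like level there: it was at 4.83, 3.97 and 8.66 CPM in clusters 23, 17 and 24 and at 1.52 CPM (0.557 to 3.30) in the macrophage-like cells. Hoxa5 was at 1.10, 1.70 and 1.48 CPM in these clusters and at 2.78 CPM in the ventral macrophage-like cells, and all 10 fibroblast markers were above 10 CPM in each of the 3 clusters.

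**Figure D3:**
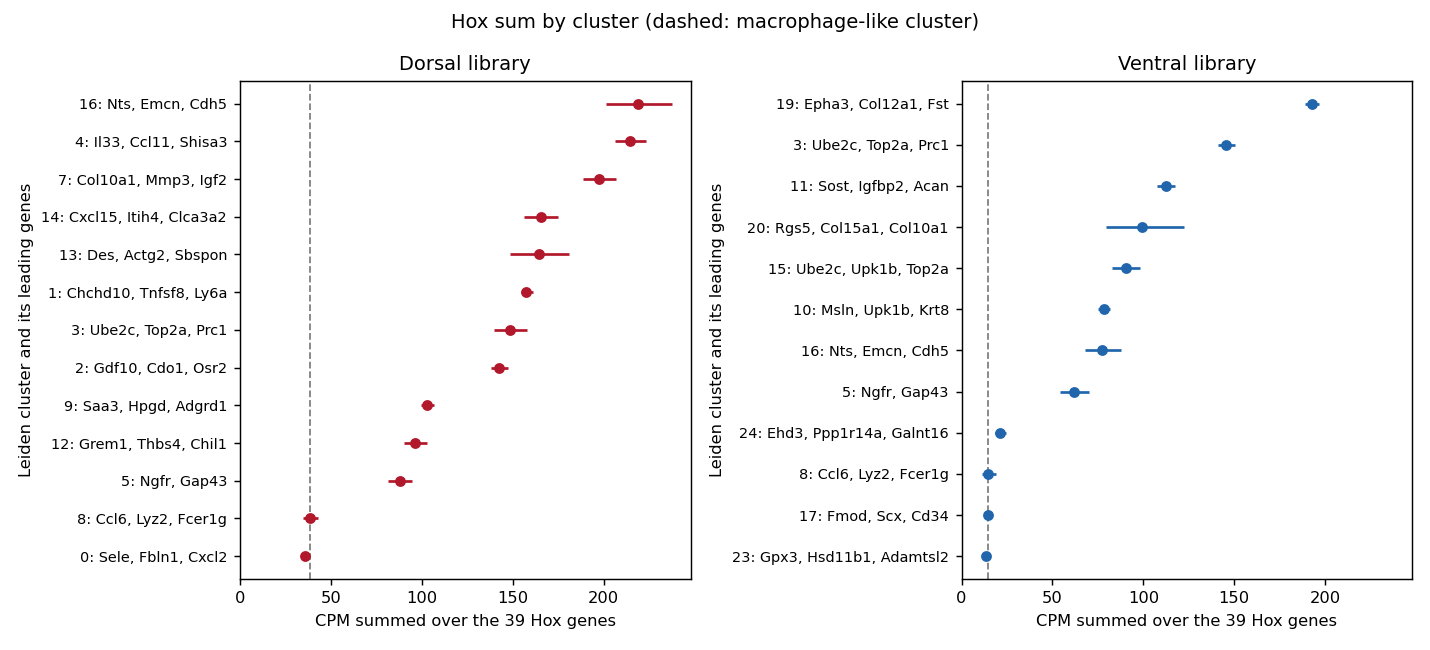
Summed CPM of the 39 Hox genes in each cluster of at least 50 cells, dorsal (left) and ventral (right), with 95% Poisson intervals; the dashed line marks the macrophage-like cluster of the library. In the ventral library 3 clusters lie within 1.5 times the line, and the clusters above that lie between 61.9 and 193 CPM.

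The dorsal clusters with much Hox RNA differed in which genes made it up. Cluster 7 (led by Col10a1, Mmp3 and Igf2) had the highest Hoxa5 level of the clusters of both libraries clustered together, 85.4 CPM (79.5 to 91.6). It had Hoxa3 at 18 CPM and Hoxa7 at 5.92 CPM. Cluster 4 (led by Il33 and Ccl11) followed with Hoxa5 at 68.9 CPM (64.2 to 73.9) and added Hoxd8 at 8.04 CPM, Hoxb7 at 4.86 CPM and Hoxc4 at 2.03 CPM. Cluster 2 (led by Gdf10, Cdo1 and Osr2) had Hoxa5 at 47.6 CPM but only 0.163 CPM of Hoxd8 and 0.203 CPM of Hoxc4. Thus these 3 clusters had Hoxa5 as their highest Hox gene and differed in its level and in genes of both lower and higher number. In clusters 7, 4 and 2, Hoxa2 was at 11.6, 6.10 and 6.22 CPM and Hoxb5 at 2.96, 8.57 and 4.03 CPM. Cluster 12 (led by Grem1 and Thbs4) had Hoxb2 at 25.6 CPM and Hoxb3 at 18.6 CPM, close to clusters 2, 4 and 7, with Hoxa5 at 6.37 CPM (4.86 to 8.20). That Hoxa5 level was below the 14.5 CPM of the dorsal macrophage-like cells, and below their 9.36 CPM without called doublets. With the dorsal library clustered alone, cells led by Calca and Saa3 had Hoxa5 at 139 CPM, above cluster 7.

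Cluster 1 (led by Chchd10, Tnfsf8 and Ly6a), with 19.3% of the dorsal cells, held the largest share of the dorsal UMIs of Hoxc4 and of several genes with higher paralogue numbers. It held 46.8% of the Hoxb7 UMIs, 34.1% of Hoxb8, 49.5% of Hoxc4, 59.3% of Hoxc6 and 48.1% of Hoxd8. In the ventral library the corresponding place was taken by cluster 19, with 22.1% of the cells: it held 61.0% of the Hoxa5 UMIs, 43.4% of Hoxb2, 52.2% of Hoxc4 and 47.4% of Hoxd8. The level of Hoxa5 in cluster 19 was 36.7 CPM (35.2 to 38.3) and that of Hoxb2 38.0 CPM (36.4 to 39.7). Among the clusters of both libraries clustered together, Hoxb2 thus had its highest level in cluster 19. Its interval overlapped those of ventral clusters 3, 15 and 20 and of dorsal clusters 3 and 13.

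**Figure D4:**
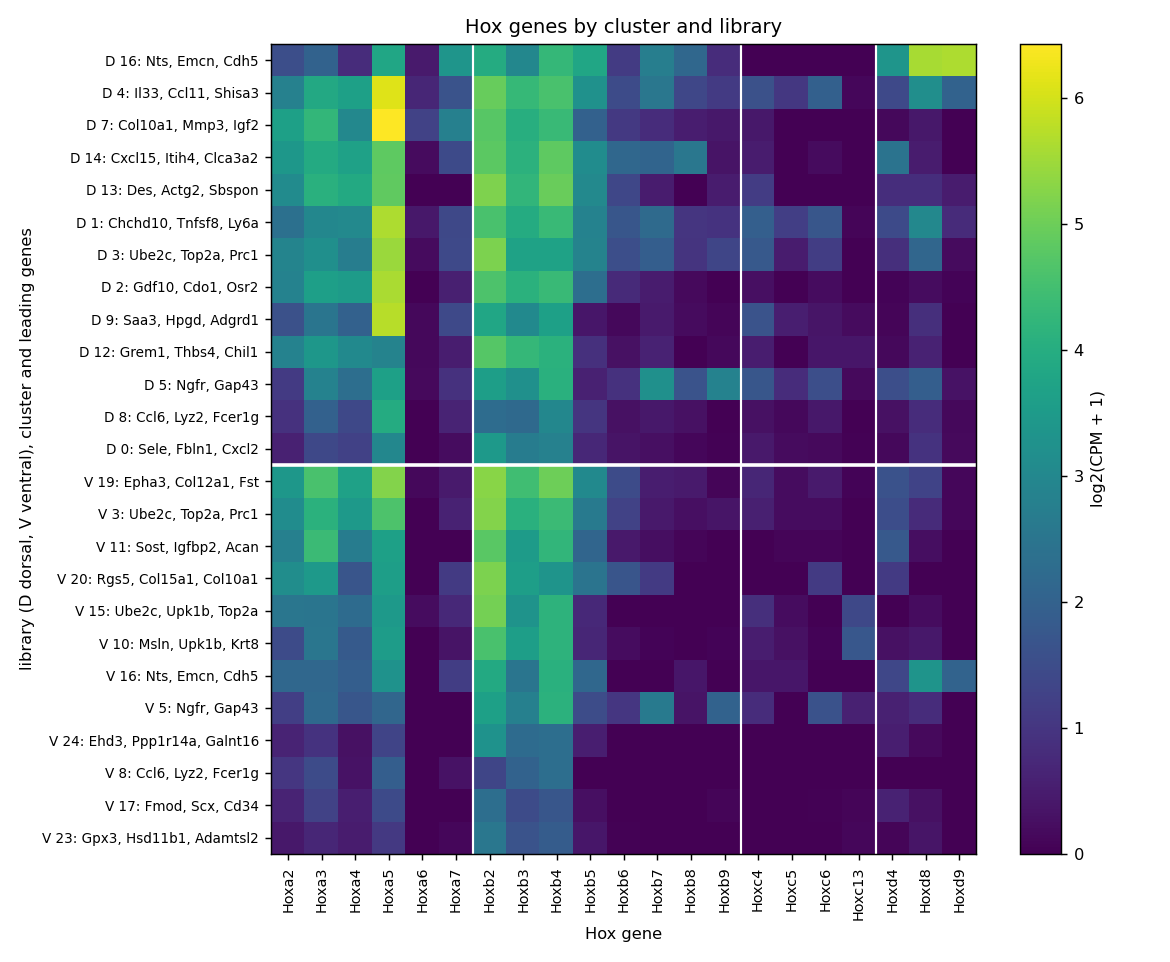
Level of 21 of the 22 Hox genes with at least 50 UMIs in each cluster, as log2(CPM + 1), dorsal clusters (D) above the white line and ventral ones (V) below, ordered by Hox sum within a library; no intervals are drawn. Hoxa5 is brightest in dorsal clusters 7 and 4 (85.4 and 68.9 CPM), Hoxd8 and Hoxd9 in the dorsal endothelial-like cluster 16, and Hoxc13 stands out in ventral clusters 10 and 15.

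After every cell was thinned to 8000 UMIs, a Hox UMI was found in 53.9% (52.9% to 54.9%, exact Clopper-Pearson) of the dorsal and 35.1% (34.2% to 36.0%) of the ventral cells. Without thinning the shares were 76.7% and 51.7%. In macrophage-like cells the thinned shares were 17.3% and 10.7%, with median depths of 43244 and 27578 UMIs before thinning. Clusters 7 and 4 reached 77.8% and 77.2%, and ventral cluster 19 reached 72.4%. Ventral clusters 23, 17 and 24 had 7.78%, 9.60% and 11.8%, each within the interval of the ventral macrophage-like share (5.97% to 17.3%), although the Hoxb2 level in CPM lay above that of the macrophage-like cells. At 8000 UMIs, 3 or more different Hox genes were seen in 18.8% of the cells of cluster 4 and in 15.6% of those of cluster 19.

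Endothelial-like cells had Hoxd9 and Hoxd8 as their highest Hox genes in the dorsal library. They numbered 106 dorsal and 144 ventral cells, in cluster 16, where all 10 endothelial markers were above 10 CPM in both libraries. Hoxd9 was at 48.5 CPM (126 UMIs) in the dorsal and 3.14 CPM (10 UMIs) in the ventral cells, a log2 ratio of 3.95 (3.02 to 5.05). Hoxd8 was at 47.0 and 9.09 CPM (2.37, 1.77 to 3.01). Paralogues 6 to 13 together were at 136 and 16.9 CPM (3.01) and paralogues 1 to 5 at 82.8 and 60.2 CPM (0.46).

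Both genes were among the 5 Hox genes with at least 50 UMIs in this class, of which 2 passed the 2-fold limit on the dorsal side, as did 6.22% of all genes. No Hox gene passed it on the ventral side, where 3.82% of all genes did. The other 3 were Hoxb2 at 14.6 and 14.1 CPM, Hoxb4 at 18.5 and 16.0 CPM and Hoxa5 at 13.1 and 8.78 CPM, and the intervals of all 3 ratios included 0. With fewer UMIs, Hoxd10 was at 15.8 and 1.88 CPM (41 and 6 UMIs) and Hoxb5 at 13.1 and 3.45 CPM (34 and 11 UMIs). A Hoxd9 UMI was found in 31 of 106 dorsal and 4 of 144 ventral cells, beside 1 of 196 dorsal and 0 of 131 ventral macrophage-like cells (a count of 0 allows at most 2.29% of cells with a UMI, and sets no limit on cells that express the gene). This class supplied 48.1% of all dorsal Hoxd9 UMIs from 1.19% of the cells.

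Lymphatic markers moved with this difference. Prox1, Lyve1, Pdpn, Flt4 and Ccl21a, all 5 detected in both libraries, summed to 2635 CPM in the dorsal and 249.6 CPM in the ventral endothelial-like cells. A Prox1 UMI (Prox1 is the defining factor of lymphatic endothelium) was found in 57 of 106 dorsal and 32 of 144 ventral cells. Lyve1 was found in 57 dorsal and 11 ventral cells, Pdpn in 33 and 13, Flt4 in 87 and 43 and Ccl21a in 22 and 4. How many ventral cells with Prox1 held the other markers was not tested, so the split below is by Prox1 and not by lymphatic identity. Split on Prox1, a choice made after seeing the data, Hoxd9 was at 89.5 CPM in the dorsal and 12.7 CPM in the ventral cells with Prox1. The ventral value rests on 8 UMIs in 3 cells. In cells without Prox1, Hoxd9 was at 4.77 and 0.781 CPM, from 6 and 2 UMIs. The Prox1-positive cells thus held 120 of 126 dorsal and 8 of 10 ventral Hoxd9 UMIs, and Hoxd10 had 41 of its 42 dorsal UMIs there.

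Hoxd8 was less tied to Prox1, at 62.7 and 17.5 CPM with it and 30.2 and 7.03 CPM without it. The log2 ratio of Hoxd8 was 1.84 (0.93 to 2.90) in the first and 2.10 (1.26 to 3.00) in the second subset. For Hoxd9 the ratio was 2.82 (1.79 to 4.06) with Prox1, an interval that includes the 3.95 of the whole class. Without Prox1 it was 2.61 (0.13 to 5.95). How far the unequal number of Prox1-positive cells and how far their Hoxd9 level make up the class ratio was not tested beyond these values.

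Skeletal muscle-like cells, which were found in the dorsal library alone, also had Hoxd8 and Hoxd9 as their highest Hox genes. In 38 cells, Hoxd8 was at 44.9 CPM (34.6 to 57.4) and Hoxd9 at 34.4 CPM (25.4 to 45.5), with 64 and 49 UMIs, and 24 and 26 of the cells held them. Hoxd4 was at 9.83 CPM, and Hoxd10 had 1 UMI, against 41 in the endothelial-like cells. Hoxa5 was at 4.91 CPM and Hoxb4 at 4.21 CPM, both below the dorsal macrophage-like levels of 14.5 and 6.92 CPM. Their intervals (1.98 to 10.1 and 1.55 to 9.17 CPM) include the levels without called doublets, 9.36 and 6.34 CPM. The cardiomyocyte-like cells had Hox sums of 38.4 CPM (28.2 to 51.1) in the dorsal and 12.7 CPM (5.82 to 24.1) in the ventral library. These intervals include the macrophage-like sums, but not the dorsal one without called doublets.

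Schwann and glial-like cells carried Hoxb4 and Hoxb2 at close levels in both libraries. The 468 dorsal and 195 ventral cells (cluster 5, led by Ngfr and Gap43) had Hox sums of 88.0 and 61.9 CPM (log2 ratio 0.51, 0.29 to 0.73). Hoxb4 was at 15.9 and 16.5 CPM and Hoxb2 at 11.1 and 11.6 CPM, and both ratios had intervals including 0. Hoxb7 was at 8.35 and 5.16 CPM (0.70, -0.04 to 1.5) and Hoxb9 at 6.20 and 3.09 CPM (1.0, 0.07 to 2.05). With 5.24% of the dorsal cells, this class held 35.0% of the dorsal Hoxb9 UMIs.

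Of 7 Hox genes with at least 50 UMIs in the glial-like cells, 2 (Hoxa5 and Hoxb9) passed the 2-fold limit on the dorsal side, as did 5.30% of all genes, and none on the ventral side, as did 2.81%. Hoxa5 was at 11.5 and 3.35 CPM (1.78). It rested on 53 dorsal cells that formed a cluster of their own when the dorsal library was clustered alone. These cells had Hoxa5 at 41.4 CPM, 12189 CPM of fibroblast markers against 2667 CPM in the larger glial-like cluster of 412 cells, and 51 of the 53 were called doublets. Without the 53 cells, Hoxa5 was at 2.32 CPM in the dorsal glial-like cells, with a ratio of -0.53 (-1.73 to 0.68). Hoxb7 stayed at 9.93 CPM, with a ratio of 0.95 (0.19 to 1.75). Summed neuron markers were 272 CPM in the dorsal and 115 CPM in the ventral glial-like cells, and summed mural markers 515 and 2223 CPM. Their part in the Hox values was not tested.

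Mesothelial-like cells differed in Hoxa5, through a set of dorsal cells with little Msln. In 1034 dorsal cells (nearly all in cluster 9) and 1083 ventral cells (clusters 10 and 15), Hoxa5 was at 51.8 and 10.6 CPM (log2 ratio 2.28, 2.11 to 2.46). Hoxb2 was at 13.3 and 24.9 CPM (-0.91), Hoxb4 at 11.7 and 16.8 CPM (-0.52), and Hoxc13 at 0.136 and 2.19 CPM (-4.01). Of 11 Hox genes with enough UMIs, 3 (Hoxa5, Hoxa7 and Hoxc4) passed the 2-fold limit on the dorsal side, as did 8.0% of all genes, and 1 (Hoxc13) on the ventral side, as did 7.86%. Cluster 9 was named on 4 of the 10 mesothelial markers, and clusters 10 and 15 on 9. At Leiden resolution 2.0, 876 dorsal cells in a cluster led by Saa3 and Fam110c were named fibroblast-like. Another 145 dorsal cells, in a cluster led by Calca and Hpgd, were named mesothelial-like there.

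When the dorsal library was clustered alone, cluster 9 fell into cells led by Msln and Hpgd (621 cells) and cells led by Calca and Saa3 (395 cells). Msln was at 392 CPM in the first and 7.06 CPM in the second, against 984 CPM in the ventral mesothelial-like cluster led by Msln. Other markers of the list differed less: Wt1 was at 68.7 and 71.3 CPM and Upk3b at 44.7 and 32.8 CPM in the 2 sets of dorsal cells. Of the 10 mesothelial markers, 9 were at 10 CPM or more in the cells led by Msln and 6 in those led by Calca, with sums of 728 and 204 CPM. Hoxa5 was at 8.92 CPM in the first and 139 CPM in the second, and the Hox sums were 42.3 and 223 CPM. Hoxc4 was at 0.315 and 5.81 CPM and Hoxb4 at 9.08 and 16.5 CPM. Without the cells led by Calca, the dorsal mesothelial-like cells had a Hox sum of 44.3 CPM against 80.6 CPM in the ventral ones (log2 ratio -0.86, -0.97 to -0.75). Hoxa5 was then at 9.36 and 10.6 CPM (-0.19, -0.45 to 0.08), so that the Hoxa5 difference of the class lay in the cells led by Calca.

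Fibroblast-like cells had nearly the same Hox sum in both libraries and a different mix of paralogues. The sums were 110.2 CPM in 4641 dorsal cells (clusters 0, 1 and 2) and 98.1 CPM in 5171 ventral cells (clusters 19 and 23), a log2 ratio of 0.17 (0.13 to 0.20). Of 20 Hox genes with at least 50 UMIs, 9 passed the 2-fold limit on the dorsal side, as did 9.93% of all genes, and all 9 had paralogue numbers 4 to 9. They were Hoxa7, Hoxb7, Hoxb8, Hoxb9, Hoxc4, Hoxc5, Hoxc6, Hoxd8 and Hoxd9, with log2 ratios of 1.48 to 3.67. On the ventral side 1 passed it, as did 5.84% of all genes. Hoxa5 was at 32.9 and 17.9 CPM (0.88) and Hoxa3 at 5.86 and 11.1 CPM (-0.92). The sum hides that both libraries mix Hox-poor clusters (35.9 CPM in dorsal cluster 0, 13.6 CPM in ventral cluster 23) with Hox-rich ones. It also depends on the naming rule. Dorsal clusters 4 and 12 (215 and 96.2 CPM) and ventral cluster 17 (14.3 CPM) carried most fibroblast markers but stayed unnamed and are not in the class.

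Mural-like cells (smooth muscle and pericyte markers) had a higher Hox sum in the dorsal library, at 165 CPM in 602 cells (clusters 13 and 14) and 82.8 CPM in 1487 cells (clusters 11, 20 and 24). Of 10 Hox genes with at least 50 UMIs, 5 passed the 2-fold limit on the dorsal side, as did 7.66% of all genes: Hoxa2, Hoxa4, Hoxa5, Hoxb4 and Hoxb5, with log2 ratios of 1.02 to 1.75. None passed it on the ventral side, where 4.6% of all genes did. Hoxa5 was at 27.5 and 8.27 CPM, Hoxa4 at 12.4 and 3.68 CPM and Hoxb4 at 28.7 and 13.1 CPM. The ventral class mixes Hox-poor cluster 24 (485 cells, 21.3 CPM) with richer ones such as cluster 11 (931 cells, 112.5 CPM). In cluster 11, Hoxb4 was at 17.8 CPM and Hoxa2 at 6.0 CPM, less than 2-fold below the dorsal class (28.7 and 8.70 CPM). Hoxa4, Hoxa5 and Hoxb5 were at 5.53, 11.6 and 3.29 CPM there, still more than 2-fold below the dorsal class. The class ratio of 0.99 moved to between 0.49 and 0.71 under the other clusterings.

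Cluster 3, the dividing cells led by Ube2c and Top2a, was the 1 mesenchymal cluster with many cells in both libraries (193 dorsal, 901 ventral). The Hox sums were 149 and 146 CPM (log2 ratio 0.03, -0.07 to 0.13). Inside that equal sum, Hoxa3 was at 8.16 and 16.4 CPM (-1.0) and Hoxa5 at 43.4 and 23.7 CPM (0.88). Paralogues 6 to 13 together were at 14.5 and 3.82 CPM (1.93, 1.51 to 2.34). Of its 10 Hox genes with at least 50 UMIs, 0 passed the 2-fold limit on the dorsal side, where 5.13% of all genes did. On the ventral side 3 passed it (Hoxa3 and Hoxd4 among them), as did 6.67% of all genes. At Leiden resolution 2.0 the dividing cells split largely by library, with clusters of 172 dorsal and 0 ventral, 9 and 320, and 6 and 524 cells among them. With each library clustered alone, mural markers summed to 2154 CPM in dorsal cells led by Ube2c and 12909 CPM in ventral cells led by Top2a. Of these cells, 22.8% and 9.31% were called doublets. Whether cluster 3 holds like cells of both libraries was not tested.

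**Figure D5:**
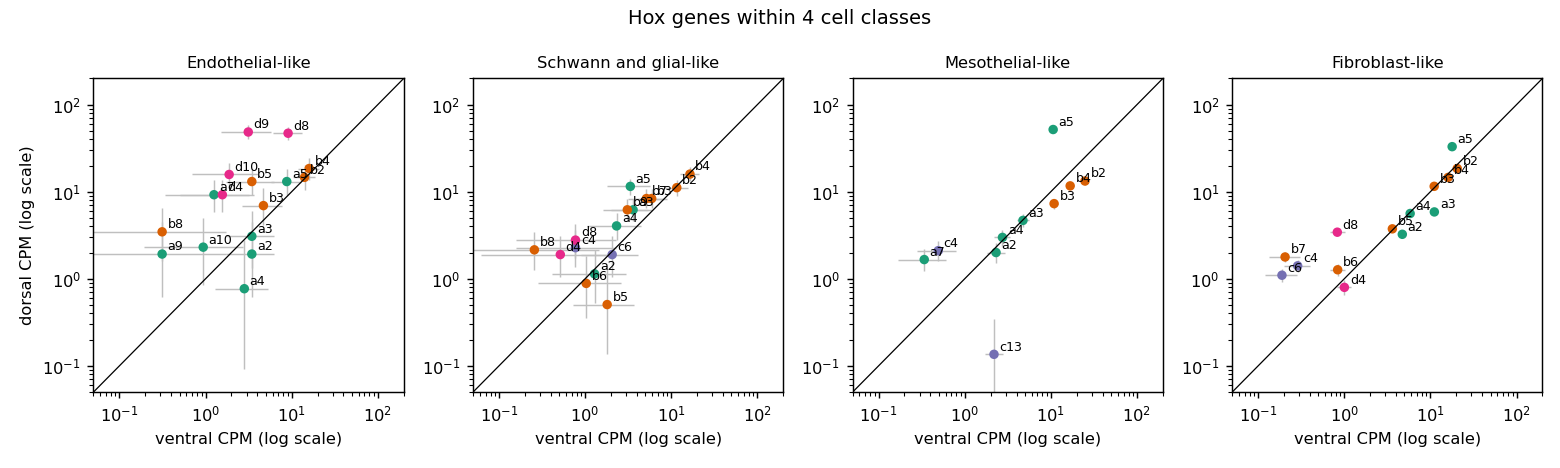
Dorsal against ventral CPM of Hox genes within 4 cell classes, on log axes, for genes with at least 1 CPM in either library and a UMI in both, leaving out the same gene as the other plots; point labels give the gene without "Hox", colours the genomic cluster, grey bars the 95% Poisson intervals and the line equal levels. Hoxd8, Hoxd9 and Hoxd10 lie above the line in endothelial-like cells, Hoxa5 in mesothelial-like cells (51.8 and 10.6 CPM), and most glial-like genes lie near it.

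Isl1, the LIM homeodomain factor in the title of the series, was found in 224 dorsal and 319 ventral cells. Cells with an Isl1 UMI had a Hox sum of 157 CPM against 117 CPM without it in the dorsal library (log2 ratio 0.42, 0.33 to 0.52) and of 111 against 83.8 CPM in the ventral library (0.41, 0.31 to 0.50). Their median depth was higher, at 25152 against 22740 UMIs in the dorsal and 23991 against 21399 UMIs in the ventral library. The part of depth in the difference was not tested. The size and direction differed between clusters. In cluster 9, 67 Isl1-positive cells had a Hox sum of 214 against 95.9 CPM and Hoxa5 at 134 against 47.2 CPM (1.51). Isl1 itself was at 7.06 CPM in the cells led by Calca and 0.210 CPM in those led by Msln.

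In the ventral cluster 19 the relation was the opposite, with a Hox sum of 140.3 CPM in 123 Isl1-positive cells against 196 CPM in the others (log2 ratio -0.48, -0.62 to -0.35). There, Hoxa5 was at 19.8 against 37.8 CPM and Hoxa3 at 12 against 23.5 CPM, while Hoxb2 (34.6 against 38.2 CPM) and Hoxb3 (22.8 against 21 CPM) had ratios with intervals including 0. In the Hox-poor cluster 17, 61 Isl1-positive cells had 31.7 against 13.6 CPM (1.22, 0.76 to 1.65). In the fibroblast-like cells of the dorsal library the ratio was 0.07 (-0.11 to 0.25).

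The partners of Hox proteins differed by less than 2-fold between the libraries. Of 9 cofactor genes (PBX, MEIS and PREP families), 0 passed the 2-fold limit on either side, beside 12.8% and 6.03% of all genes, and with so short a list nothing is read from that count. Meis1 was at 39.3 CPM in the dorsal and 25.7 CPM in the ventral library (log2 ratio 0.61), Meis2 at 79.9 and 109 CPM (-0.45), Pbx4 at 2.07 and 3.76 CPM (-0.86) and Pknox1 at 16.0 and 10.8 CPM (0.57), and the intervals of these 4 ratios did not include 0. Of 18 chromatin regulators of the Trithorax and Polycomb groups, 1 passed it on the dorsal side (Cbx7, 1.64 and 0.774 CPM, 1.08, and 0 genes with TMM scaling) and 0 on the ventral side.

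Genes that act upstream of Hox genes or in retinoic acid signalling differed in both directions. Of 18 with at least 50 UMIs, 5 passed the 2-fold limit on the dorsal side (Rxrg, Egr2, Crabp2 and Gbx2 among them) and 4 on the ventral side (Cyp26a1, Aldh1a1 and Cyp26b1 among them), beside 12.8% and 6.03% of all genes. Egr2 (Krox20), an activator of Hoxb2 in the hindbrain, was at 29.6 CPM in the dorsal and 3.92 CPM in the ventral library (log2 ratio 2.92). The retinoic acid-degrading enzyme Cyp26a1 was at 0.175 and 1.79 CPM (-3.36). Rxrg, a retinoid receptor, was at 0.515 and 0.0395 CPM (3.70). Aldh1a1, which makes retinoic acid, is named after its values were seen and was at 42.9 and 139 CPM (-1.70). Other such enzymes of the list, named after their values were seen too, went the other way. Aldh1a2 was at 17.2 and 9.11 CPM (0.92) and Aldh1a3 at 1.83 and 1.04 CPM (0.82). With TMM scaling 4 were past the limit on each side.

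Other transcripts from inside the Hox clusters were counted too. Of 5 with at least 50 UMIs, 2 passed the 2-fold limit on the dorsal side, as did 12.8% of all genes: Hoxd3os1, at 1.68 and 0.273 CPM (log2 ratio 2.62), and Hoxb5os, at 3.03 and 1.03 CPM (1.56). Hoxaas3 was at 3.73 and 2.0 CPM (0.90), and Hotairm1 at 23.2 and 21.8 CPM (0.09). Of the 39 Hox genes, 9 overlap an antisense gene in the annotation, such as Hoxb3 with Hoxb3os over 52.9% of its exonic bases. On the same strand, 6 Hox genes share exonic bases with another annotated gene, 2 of them over more than 50% of their exonic bases. The counts of such genes are less certain. Of 14 genes that flank the 4 clusters, 0 differed 2-fold in either direction, beside 12.8% of all genes on the dorsal and 6.03% on the ventral side; the farthest apart was Cbx5, at 47.2 and 73.6 CPM (-0.64).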

How the data were processed

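UMI counts per gene and barcode were deposited as raw matrices of 28692 genes and 6794880 barcodes per library; per the submitters' processing notes they come from Cell Ranger 3.0.2 and mm10, and no annotation release or counting option was given in the sources used. Cells were barcodes with at least 8000 UMIs and at most 20% mitochondrial UMIs. Cells were clustered in scanpy 1.11.5 (scaled to 10000 UMIs, log values, 2000 variable genes without Hox genes or other transcripts of the Hox clusters, 30 components, 15 neighbours, Leiden resolution 1.0). A cluster was named from marker lists by a rule set with earlier results known; clusters under 3 detected markers of a list stayed unnamed. Doublets were kept; Scrublet set 637 dorsal and 544 ventral cells apart in an alternative, by the highest scores in the dorsal library, where its automatic threshold marked 0%. Levels are CPM of summed counts. There was no replicate, so genes were counted by a 2-fold rule among those with at least 50 UMIs and no p-value was computed; the ratio and its interval were tested on simulated data. TMM factors came from edgeR 4.0.16, gene positions from GENCODE M21 and promoters from RefSeq. Values are given for Hox genes with at least 1 CPM in either library, the 3 highest per class and up to 4 of each list with the largest ratios; others are named as chosen later. Some genes that this rule takes in are not reported here by name or plotted; sums and counts include them. The members and lists were chosen with earlier results of these data known. Alternatives were a lower or library-specific UMI minimum, at most 10% mitochondrial UMIs, doublet removal, TMM, thinning, equal class shares, other gene minimums and other clusterings.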

Additional observations from a re-analysis of the deposited data

How the results depend on the processing

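No paired analysis was possible because each domain has 1 library. Under alternatives 269 values were compared. Of these, 202 moved by less than their counting interval or, for counts, by under 1.5 times. Another 65 moved further and 2 were classed as reversed. That class does not hold every change of sign: Hoxa2 and Hoxb2 with thinned cells and Hoxb4 with TMM scaling changed sign too. The cause of a move was not tested except where a smaller set of genes or cells makes it. Of the 11 dorsal-higher and 2 ventral-higher Hox genes there were 22 and 4 without a minimum of UMIs per gene, 3 and 1 at a minimum of 500 UMIs, and 1 ventral-higher with thinned cells. The shares of 12.8% and 6.03% of all genes hold for the minimum of 50 UMIs without thinning. Nothing is therefore read from these other counts. The log2 ratio of all Hox genes (0.48) was 0.36 with TMM scaling, 0.59 with thinned cells and 0.52 with classes held at equal shares. In the same order, Hoxa (0.68) had 0.56, 0.83 and 0.74, Hoxb (0.18) had 0.060, 0.29 and 0.23, and paralogues 1 to 5 (0.37) had 0.25, 0.50 and 0.43. With thinned cells Hoxc had 2.18 and Hoxd 1.36, and with equal class shares paralogues 6 to 13 had 2.07. For Leiden resolution 2.0, 4000 variable genes, Hox genes allowed and doublets removed in turn, the Hox sum ratio of fibroblast-like cells (0.17) was 0.0014, 0.29, 0.30 and 0.038, and of mural-like cells (0.99) 0.57, 0.49, 0.68 and 0.71. It was 0.46 in mesothelial-like cells with 4000 variable genes (0.35) and 0.95 in macrophage-like cells without doublets (1.40), with the cells clustered again or not. Alternatives added after seeing the data gave 1.15 for endothelial-like cells without Prox1 (1.51) and -0.86 for mesothelial-like cells without the Calca cells. Hoxa5 moved to -0.19 (-0.45 to 0.08) without the Calca cells and to -0.53 (-1.73 to 0.68) without the smaller dorsal glial cluster. Both Hoxa5 intervals include 0, so a dorsal excess is no longer seen and a ventral one is not shown. With each library clustered alone, the lowest dorsal cluster had 23.5 CPM, the lowest ventral one 11.3 CPM and the highest ventral one 251 CPM. Unthinned shares of cells with a Hox UMI were 76.7% and 51.7%. With TMM scaling 0 chromatin regulators were dorsal-higher. At least 2 Isl1 UMIs left fewer than 50 cells in each library, and that alternative gave no value. Depth limits genes under 50 UMIs, 17 of the 39.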
